A study of Mus musculus with 14 samples.

Results

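The ligation response of mice that lack Arl13b in basal cells was taken from 6 of the 14 arrays of a study of the mouse proximal epididymis, chosen by their titles. They were 3 cKO EDL arrays and 3 cKO sham arrays, with replicate numbers 2, 3 and 4 in each group, and all 21929 named genes were described. Both groups came from mice 8 weeks old in which Arl13b was deleted conditionally from the basal cells that express Krt5 (cKO), and in each mouse one side had its efferent ducts ligated (EDL) and the other side a sham operation. Proximal epididymis was frozen 48 h after surgery, and 100 ng of total RNA per array was hybridized to Clariom S mouse arrays. The 4 Ctl EDL and 4 Ctl sham arrays came from control mice of the same age, given the same surgery. The labels do not describe the control alleles or the Cre line further. Values are log2 intensities, errors are moderated standard errors, and each cKO group had n = 3. The labels do not say which replicate number is which mouse, so p-values measure the spread between these arrays.

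The epididymis receives sperm and fluid from the testis through the efferent ducts, and ligation cuts off that supply. NELL2, a secreted testis protein, travels down the lumen and binds the receptor ROS1 on principal cells, the tall secretory cells of the epithelium. ROS1 signals through the kinase ERK to transcription factors of the PEA3 group, and the initial segment, the most proximal part, depends on this signal. Basal cells sit on the basement membrane beneath the principal cells.

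Arl13b read 7.14, 7.58 and 7.16 in cKO EDL arrays and 7.24, 7.20 and 7.15 in cKO sham arrays, and the values overlapped (log2 change 0.10 ± 0.14, adjusted p = 0.77). Basal cells are a small share of this tissue, so a whole-tissue level does not check a deletion limited to them. All 7 principal cell markers and all 7 basal cell markers were above background in both groups. Background was set at 5.31, the 95th percentile of the mean levels of 1459 olfactory and vomeronasal receptor genes. Of 6 T and NK cell markers 3 were above it in each group, as was 1 of 3 B cell markers. Of 5 neutrophil markers 3 were above it in EDL arrays and 2 in sham arrays. The T cell genes Cd3e and Cd3g, the B cell gene Ms4a1 and the neutrophil gene Ly6g were among those below it in both groups. On the first principal component of the 6 arrays, which held 59.7% of the variance, EDL arrays lay at 30.8, 24.8 and 26.7 and sham arrays at -37.8, -19 and -25.6. The cKO sham array of replicate 2 stood apart: its 24 macrophage genes averaged 6.94, against 7.87 and 7.46 in the other sham arrays, and its 5 red blood cell genes averaged 8.27, against 9.37 and 9.49.

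In cKO mice the ligated side had 1106 genes that rose (5.04% of all genes) and 1040 that fell (4.74%), 9.79% in all, at a limma adjusted p under 0.05. The falls were the deeper changes: 70 genes fell 4-fold or more and 11 fell 16-fold or more, while 13 rose 4-fold or more and 0 rose 16-fold. Without cKO sham replicate 2, 431 genes rose and 632 fell, and 693 of the rises and 428 of the falls were lost. A change is said to have held where it also passed in each of the 6 fits without 1 cKO array and in a fit with replicate number as a block. By this measure 565 falls held (54.3% of the falls, 2.58% of all genes), as did 348 rises (31.5% of the rises, 1.59% of all genes). In bulk tissue, fewer cells of a type and less RNA per cell cannot be told apart.

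**Figure D1:**
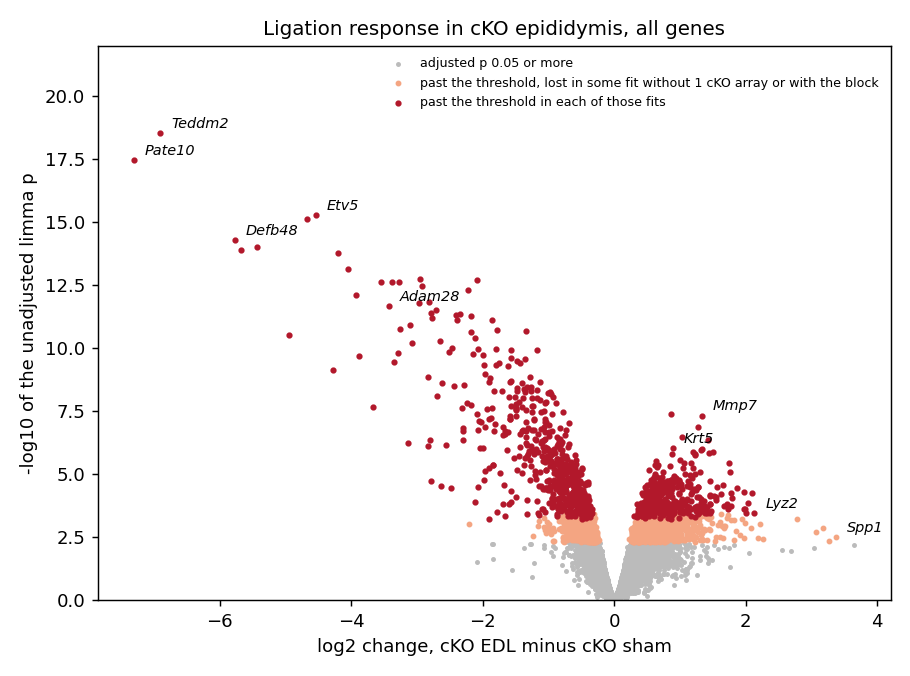
Each point is 1 of 21929 genes, with the log2 change of cKO EDL minus cKO sham (3 arrays each) on the x axis and -log10 of the unadjusted limma p on the y axis. The 565 falls and 348 rises that held are dark red, and the left arm reaches past -6.90 (Teddm2) while the right arm of held rises ends at 2.13 (Lyz2). Pate10, farthest left, was below background in the EDL arrays, so its place is not an exact change.

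The receptor pathway fed by testis fluid fell at several of its steps. Of its 9 measured genes 6 fell (66.7%, beside 4.74% of all genes) and 0 rose, and all 6 falls held. The list's median change was -1.61, beside 0.005 over all genes. Ros1, the receptor, read 10.63, 11.04 and 10.86 in EDL arrays and 11.63, 11.46 and 11.53 in sham arrays, a fall of 1.62-fold (adjusted p = 0.0037). Ovch2, a secreted protease that acts below ROS1 in mice, read 11.39, 11.63 and 11.44 in EDL arrays and 13.13, 13.09 and 13.06 in sham arrays. Its fall was 3.05-fold, and the groups did not overlap for either gene, as was so for 25.8% of all genes. Adam28, a surface metalloprotease, fell 10.7-fold, with 9.54, 9.37 and 9.38 in EDL arrays and 13.05, 12.79 and 12.72 in sham arrays. Nell2 itself lay below background in both groups, with 4.83, 4.47 and 4.22 in EDL arrays and 4.79, 4.47 and 4.44 in sham arrays. Ptpn6, a phosphatase that restrains ROS1 signalling, did not pass (log2 change 0.26 ± 0.09, adjusted p = 0.08).

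All 3 PEA3 factors fell, and their falls are among the 6 of the receptor pathway list above. Etv5 read 7.69, 7.35 and 7.80 in EDL arrays and 12.25, 12.01 and 12.16 in sham arrays, a fall of 23.1-fold (log2 change -4.53 ± 0.11, adjusted p = 3.8e-12). Etv1 read 6.68, 6.56 and 6.55 in EDL arrays and 9.42, 9.25 and 9.27 in sham arrays, and Etv4 fell 5.91-fold. Every EDL array lay below every sham array for all 3 genes, while the groups did not overlap for 25.8% of all genes. Among the 23 genes of ERK output 16 fell (69.6%, beside 4.74% of all genes) and 1 rose (4.3%, beside 5.04%). Of these falls 14 held, and the median change of the list was -0.86. The list includes Etv1 and Etv5, which are thus counted in both lists. Dusp6, a phosphatase that inactivates ERK, read 8.28, 8.18 and 8.37 in EDL arrays and 10.64, 10.75 and 10.85 in sham arrays, a fall of 5.54-fold. Dusp5, its nuclear relative, fell 4.54-fold, and Dusp4 fell 2.65-fold. The feedback inhibitors Spry1, Spry2 and Spry4 fell 2.15-fold, 1.42-fold and 1.68-fold, and Spred1 and Spred2 fell 1.52-fold and 1.81-fold. Spred3 did not pass (log2 change -0.13 ± 0.12, adjusted p = 0.60). Myc, a growth regulator, was the 1 gene of the list that rose (log2 change 0.98 ± 0.22, adjusted p = 0.013), and it did not pass without cKO sham replicate 2 (adjusted p = 0.0575) or without cKO EDL replicate 4 (0.0596). Other transcription factors fell beside them: Runx2 fell 6.88-fold, Lef1 fell 3.55-fold and Runx1 fell 2.56-fold, and all 3 falls held.

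PEA3 factors and PU.1, the macrophage factor encoded by Spi1, belong to the ETS family, whose members bind DNA around the letters GGAA. Promoter windows, 250 bases before to 50 after a start in RefSeq (GRCm38.p6), were at hand for 16758 of the genes and were read on both strands. A total of 11 motifs were searched, all with the expression results known, and 4 of them only after the matches of the first 7 had been seen. The first 7 were the ETS forms CCGGAAGT with its variant CNGGAAGT, then ACCGGAAGT with the variant CAGGAAGT, a pair of GGAA cores separated by 4 bases of any kind, the sterol element TCACNCCAC and the AP-1 site TGACTCA. The later 4 were ETS forms that overlap each other and the first ones in their letters: GAGGAAGT with the shorter AGGAAGT, then GAGGAAG with the core GGAAGT. Of the 10 fallen ERK genes with a window 0 held any of the first 7, and 0 of the 10 fallen cholesterol genes with a window held the sterol element, beside 1.47% of all genes. AGGAAGT is shown because of its matches, so its counts are descriptions. It stood in 4 of those 10 ERK genes (Dusp5, Etv1, Etv5 and Spred2), in 8 of 60 genes that fell 4-fold or more (13.3%), in 7 of 16 risen macrophage genes and in 40 of 152 genes that rose 2-fold or more (26.3%), beside 10.4% of all genes. It stood in 0 of 13 risen matrix genes. The windows of 3 fallen and 2 risen genes follow, 5′ to 3′ on the gene's strand, with AGGAAGT or its reverse complement in capitals. They lie at chr16:22438319-22438618 (- strand), chr19:53528895-53529194 (+ strand) and chr14:51007679-51007978 (+ strand) for the fallen genes, and at chr4:136886151-136886450 (- strand) and chr2:14229164-14229463 (+ strand) for the risen genes.
Etv5: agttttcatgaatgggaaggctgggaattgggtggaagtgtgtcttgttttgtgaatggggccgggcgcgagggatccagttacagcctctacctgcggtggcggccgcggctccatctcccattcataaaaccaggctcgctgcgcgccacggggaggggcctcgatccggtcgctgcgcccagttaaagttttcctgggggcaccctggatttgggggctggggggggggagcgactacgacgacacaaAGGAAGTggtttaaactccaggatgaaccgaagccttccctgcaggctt
Dusp5: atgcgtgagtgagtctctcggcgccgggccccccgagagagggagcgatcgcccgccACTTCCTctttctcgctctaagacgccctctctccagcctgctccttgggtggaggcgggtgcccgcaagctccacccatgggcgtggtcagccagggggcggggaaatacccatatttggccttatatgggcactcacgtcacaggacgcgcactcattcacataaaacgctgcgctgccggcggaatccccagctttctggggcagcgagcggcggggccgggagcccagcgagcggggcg
Rnase10: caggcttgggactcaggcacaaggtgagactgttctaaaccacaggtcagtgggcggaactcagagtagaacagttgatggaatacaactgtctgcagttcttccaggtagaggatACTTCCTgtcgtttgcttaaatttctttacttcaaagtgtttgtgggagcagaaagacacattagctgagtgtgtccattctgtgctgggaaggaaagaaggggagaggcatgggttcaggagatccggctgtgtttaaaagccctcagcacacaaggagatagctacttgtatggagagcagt
C1qb: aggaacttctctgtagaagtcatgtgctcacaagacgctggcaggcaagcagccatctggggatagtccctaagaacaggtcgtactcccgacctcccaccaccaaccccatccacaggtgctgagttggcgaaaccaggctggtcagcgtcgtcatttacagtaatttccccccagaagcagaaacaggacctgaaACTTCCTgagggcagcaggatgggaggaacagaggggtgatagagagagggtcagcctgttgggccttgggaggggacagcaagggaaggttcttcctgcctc
Mrc1: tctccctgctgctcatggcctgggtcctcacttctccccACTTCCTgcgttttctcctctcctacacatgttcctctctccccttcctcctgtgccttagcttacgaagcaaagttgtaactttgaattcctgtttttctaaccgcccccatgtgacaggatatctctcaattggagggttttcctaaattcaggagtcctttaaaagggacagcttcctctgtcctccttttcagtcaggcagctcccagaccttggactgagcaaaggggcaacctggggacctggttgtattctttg
The match lies near the start site in Etv5 and farther upstream in Dusp5 and Mrc1.

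Pate10, a small three-finger protein, read 3.27, 3.27 and 3.71 in EDL arrays and 10.79, 10.67 and 10.70 in sham arrays. All 3 EDL values were below background, so its fall was at least 42.5-fold (adjusted p = 3.7e-14). Teddm2, an epididymal membrane protein, read 6.37, 6.48 and 6.57 in EDL arrays and 13.43, 13.37 and 13.33 in sham arrays, a fall of 119-fold. The EDL arrays lay close together in both genes and far below the sham arrays. Defb48, a beta-defensin, fell 54.5-fold, with 7.54, 7.12 and 7.25 in EDL arrays and 13.13, 13.03 and 13.06 in sham arrays. Rnase10, a secreted protein of the initial segment, fell 43.0-fold, with 7.61, 7.66 and 8.37 in EDL arrays and 13.27, 13.37 and 13.28 in sham arrays. Lcn9, a lipocalin that carries small lipophilic molecules, fell 18.3-fold, and Cst8, a cystatin-related protease inhibitor, fell 6.82-fold. Gcnt4, an enzyme that branches O-linked sugar chains, fell 50.8-fold, and St3gal2, which caps such chains with sialic acid, fell 9.65-fold.

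**Figure D2:**
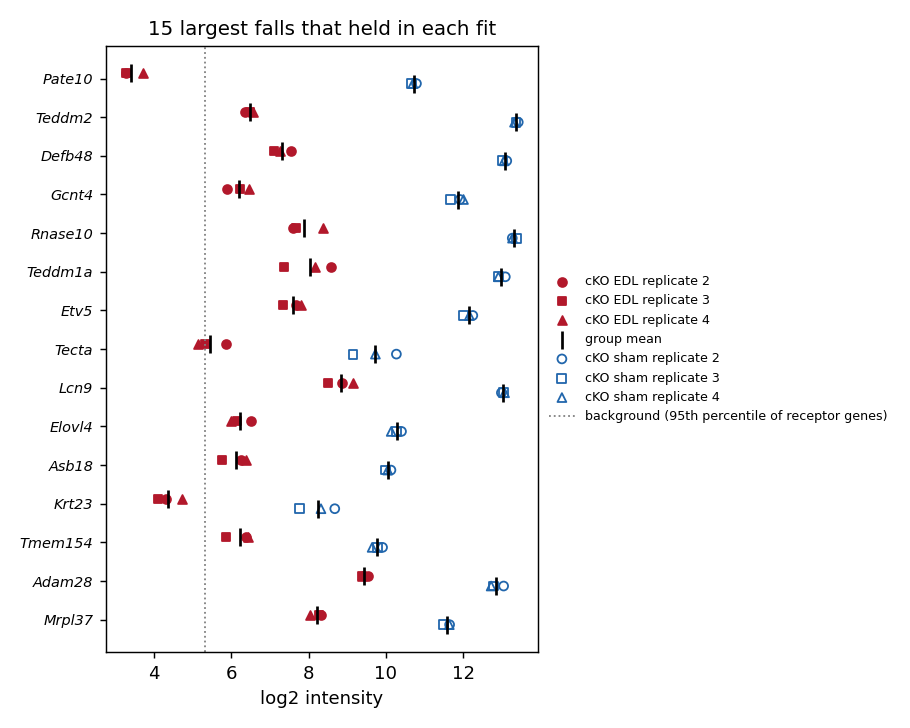
Log2 intensities of the 15 largest falls that held, with filled red symbols for the 3 cKO EDL arrays, open blue symbols for the 3 cKO sham arrays and black bars for group means. The dotted line is the background of 5.31: Pate10 and Krt23 lie left of it in every EDL array. No gene shown has overlapping groups, as was so for 25.8% of all genes, and these genes were picked for large falls that held.

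Further deep falls came from genes of many roles. Teddm1a, a relative of Teddm2, read 8.58, 7.36 and 8.16 in EDL arrays and 13.09, 12.92 and 12.91 in sham arrays, a fall of 30.6-fold. Tecta, a matrix protein best known from the inner ear, read 5.86, 5.32 and 5.15 in EDL arrays and 10.27, 9.15 and 9.73 in sham arrays, a fall of 19.3-fold. EDL values were far below sham values in both genes, with more spread between arrays than in Teddm2. Krt23, an epithelial keratin, read 4.31, 4.10 and 4.72 in EDL arrays and 8.68, 7.76 and 8.32 in sham arrays, a fall of at least 7.69-fold. Asb18, Tmem154 and Mrpl37, the last a protein of the mitochondrial ribosome, fell 15.2-fold, 11.7-fold and 10.4-fold. Inpp5d, a lipid phosphatase that is otherwise typical of blood cells, read 8.79, 9.03 and 8.60 in EDL arrays and 11.72, 11.64 and 11.53 in sham arrays, a fall of 7.07-fold. It fell while macrophage genes rose. Vip, a neuropeptide, fell at least 6.21-fold, with 5.55, 5.05 and 4.77 in EDL arrays and 7.07, 8.82 and 7.95 in sham arrays. The immediate early genes Egr1, Egr2, Nr4a1 and Ier2, transcription regulators induced within minutes of a stimulus, fell 1.98-fold, 1.52-fold, 1.58-fold and 1.45-fold. Of 20 immediate early genes 4 fell (20.0%, beside 4.74% of all genes) and 1 rose (5.0%, beside 5.04%), with a median change of -0.01. The rise was lost in several fits without 1 array, among them that without cKO sham replicate 2. Fos and Jun did not pass, with log2 changes of 0.13 ± 0.14 and 0.18 ± 0.10. All falls in this paragraph held.

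The initial segment list was not uniform. Of its 12 genes 8 fell (66.7%, beside 4.74% of all genes), 7 of them held, and 0 rose, with a median change of -0.81. Adgrg2, an orphan receptor of the epithelium, fell 1.27-fold, and did not pass without cKO sham replicate 2 (adjusted p = 0.0531). Rnase9, a relative of Rnase10 in the same cells, read 12.98, 13.02 and 13.05 in EDL arrays and 12.87, 12.95 and 12.93 in sham arrays, and did not pass. Ggt1, which breaks down glutathione outside cells, did not pass either (log2 change 0.00 ± 0.10). Of 19 caput secretion genes 8 fell (42.1%), all 8 held, and 1 rose (5.3%, beside 5.04% of all genes). The count of rises was 0 without cKO sham replicate 2, EDL replicate 2 or sham replicate 4. Lcn10, Lcn6 and Lcn8, neighbouring lipocalin genes, fell 2.69-fold, 2.03-fold and 1.90-fold. Lcn5, in the same family, read 13.32, 13.54 and 13.37 in EDL arrays and 13.43, 13.42 and 13.41 in sham arrays, with overlapping groups. Gpx5, a secreted peroxidase, and Adam7 did not pass, with log2 changes of -0.08 ± 0.07 and -0.16 ± 0.08.

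Beta-defensins, small secreted antimicrobial proteins, moved both ways. Of 41 measured 8 rose (19.5%, beside 5.04% of all genes) and 4 fell (9.8%, beside 4.74%), and 4 changes held in each direction. Defb25 and Defb47 fell 5.24-fold and 2.95-fold, while Defb10, Defb11, Defb2 and Defb9 rose 1.80-fold, 1.89-fold, 1.58-fold and 1.60-fold. Among 40 three-finger genes 7 rose and 4 fell. Ly6g5b and Ly6g5c fell 3.01-fold and 2.40-fold, and Pate5 fell 4.08-fold. Ly6f read 8.40, 8.45 and 8.32 in EDL arrays and 5.93, 6.76 and 6.20 in sham arrays, a rise of 4.28-fold that held. Without cKO sham replicate 2, 4 defensins and 4 three-finger genes rose. Without cKO EDL replicate 2, 5 defensins and 4 three-finger genes rose, while 3 three-finger genes rose without cKO sham replicate 4 and 4 without EDL replicate 4.

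A few genes were low in the cKO sham arrays and high after ligation. Defb26 read 8.87, 8.87 and 9.12 in EDL arrays and 5.50, 7.38 and 5.65 in sham arrays, a rise of 6.86-fold (adjusted p = 0.012) that did not pass without cKO sham replicate 2 (adjusted p = 0.0667). The same gene read 9.40, 10.69, 7.36 and 9.05 in Ctl EDL arrays and 8.88, 8.94, 9.72 and 8.90 in Ctl sham arrays. The cKO sham arrays and Ctl EDL replicate 4 were the low ones of the 14 arrays. Defb22 did not pass at the main setting (log2 change 3.65 ± 1.14, adjusted p = 0.059). It passed without Ctl EDL replicate 4 (limma adjusted p = 0.000326) and on the 6 cKO arrays alone (0.0065 with no replicate block). Of the 6 fits without 1 cKO array, it passed only in that without sham replicate 3 (0.047).

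Genes of cholesterol synthesis fell together by small amounts. Of 24 measured 13 fell (54.2%, beside 4.74% of all genes) and 0 rose, and the median change was -0.39. Of the falls 8 held, and 8 genes fell without cKO sham replicate 2. Lss, which closes the sterol rings, read 9.59, 9.58 and 9.58 in EDL arrays and 10.79, 10.68 and 10.41 in sham arrays, a fall of 2.07-fold. Idi1, an isomerase early in the pathway, fell 2.08-fold and Cyp51 fell 1.77-fold. Srebf2, the factor that drives this pathway, did not pass (log2 change -0.20 ± 0.08, adjusted p = 0.12), nor did Fdps (-0.03 ± 0.10). In the fatty acid list 7 of 20 fell (35.0%), 6 of which held, and 0 rose. Elovl4, which makes very long fatty acids, fell 16.6-fold. Scd1, a desaturase, fell 2.83-fold, with 10.21, 10.10 and 10.35 in EDL arrays and 11.76, 11.69 and 11.71 in sham arrays. Elovl7 fell 2.06-fold and Elovl6 fell 1.52-fold, whereas Fasn (log2 change 0.02 ± 0.09) and Elovl5 (-0.06 ± 0.09) did not pass. Mfsd2a, a transporter of lysolipids, fell 8.55-fold, and Pla2g5, a secreted phospholipase, fell 7.60-fold.

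Transport and barrier genes changed in a few members. Of 29 water and ion transport genes 3 fell (10.3%, beside 4.74% of all genes) and 1 rose (3.4%, beside 5.04%). The rise was lost in 12 of the 14 fits without 1 array (all but those without cKO sham replicate 3, with 3 rises, and cKO EDL replicate 3). Cftr, a chloride and bicarbonate channel, read 8.13, 8.03 and 7.85 in EDL arrays and 9.43, 9.07 and 9.35 in sham arrays, a fall of 2.42-fold, and Slc4a4, a bicarbonate cotransporter, fell 1.73-fold. Aqp9, a water channel, fell 1.83-fold. The 7 clear cell genes, which serve acid secretion, had 0 rises and 0 falls in limma (3 at an unadjusted p under 0.05), and Foxi1, their regulator, did not pass (log2 change 0.22 ± 0.09). Of 20 tight junction genes 3 fell and 2 rose, with a median change of 0.05. There was 1 rise without cKO sham replicate 2 or 4, and there were 3 without cKO sham replicate 3 or EDL replicate 3. The 3 falls held: Cldn10 fell 3.93-fold, Cldn2 fell 2.29-fold and Cldn4 fell 1.48-fold. Cldn10 read 7.22, 7.58 and 7.37 in EDL arrays and 9.43, 9.39 and 9.27 in sham arrays, while Tjp1 and Ocln, common parts of the junction, did not pass.

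Growth factors and their receptors moved both ways. Of 24 growth factor ligands 4 rose (16.7%, beside 5.04% of all genes) and 2 fell (8.3%, beside 4.74%). There were 0 rises and 1 fall without cKO sham replicate 2. There was 1 rise without EDL replicate 4, and there were 2 without EDL replicate 2 or sham replicate 3. Vegfa, the main growth factor for vessels, read 7.68, 7.57 and 7.86 in EDL arrays and 9.65, 9.21 and 9.35 in sham arrays, a fall of 3.25-fold. Of 20 growth factor receptors 6 rose and 2 fell: Igf1r fell 2.26-fold and Met fell 1.69-fold, while Egfr, Fgfr3, Axl and Ddr2 rose between 1.47-fold and 1.74-fold, all of which held. The macrophage growth factors moved apart, since Il34 fell 2.55-fold and Csf1 rose 1.71-fold. Il34 read 7.04, 6.80 and 6.87 in EDL arrays and 8.21, 8.21 and 8.34 in sham arrays. Csf1 read 10.29, 10.17 and 10.22 in EDL arrays and 9.28, 9.59 and 9.50 in sham arrays. Neither macrophage growth factor had overlapping groups, as was so for 25.8% of all genes. Of 31 TGF-beta pathway genes 8 rose (25.8%) and 3 fell (9.7%). Of these genes 4 rose without cKO sham replicate 2, 3 without EDL replicate 2 and 5 without EDL replicate 4. Inhbb, a subunit of activin and inhibin, fell 2.69-fold, and Skil, a repressor of TGF-beta signalling, fell 1.98-fold, whereas Tgfbi, a target of that pathway, rose 2.95-fold.

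Sperm and spermatid transcripts were lower on the ligated side. Of 21 measured 10 fell (47.6%, beside 4.74% of all genes), 8 of them held, and 0 rose, with a median change of -1.10. Prm2, a protamine that packs sperm DNA, read 8.01, 6.43 and 7.86 in EDL arrays and 9.29, 9.65 and 9.06 in sham arrays, a fall of 3.73-fold. Akap4, a scaffold of the sperm tail, read 4.49, 3.93 and 4.48 in EDL arrays, all below background, and 6.12, 6.47 and 5.84 in sham arrays, a fall of at least 1.78-fold. Odf1, a fibre protein of the tail, did not pass, with 8.62, 5.05 and 8.59 in EDL arrays and 9.36, 9.65 and 9.50 in sham arrays (log2 change -2.08 ± 0.86, adjusted p = 0.16). The EDL array of replicate 3 was the lowest for each of these genes.

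**Figure D3:**
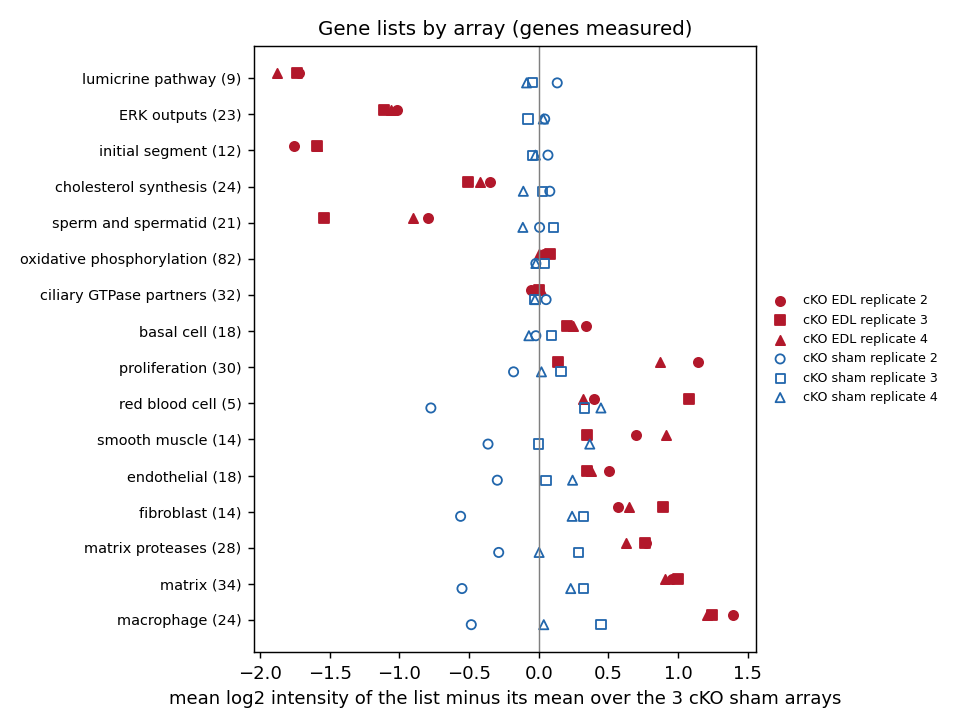
For 16 gene lists, the mean log2 intensity of each of the 3 cKO EDL arrays (filled red) and 3 cKO sham arrays (open blue) minus the mean of the sham arrays, with the number of genes measured in brackets. The sham arrays lie close together in the falling lists, while in the macrophage and matrix lists sham replicate 2 (6.94 and 7.50 before subtraction) lies left of the others.

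Among the 52 lists, the macrophage list had the highest share of rises. Of 24 measured 22 rose (91.7%, beside 5.04% of all genes), 13 of them held, 0 fell, and the median change was 1.20. Without cKO sham replicate 2, 14 rose and the median was 1.02. Cd68, a lysosomal protein of macrophages, read 10.97, 10.81 and 10.97 in EDL arrays and 10.06, 10.12 and 9.92 in sham arrays, a rise of 1.85-fold. C1qb, a subunit of complement C1q, read 10.04, 9.75 and 9.93 in EDL arrays and 8.18, 8.60 and 8.60 in sham arrays, a rise of 2.72-fold. In both genes the sham arrays lay close to each other and below every EDL array, and groups did not overlap for 25.8% of all genes. Lyz2, lysozyme, read 10.76, 10.72 and 10.33 in EDL arrays and 7.17, 9.53 and 8.73 in sham arrays, a rise of 4.38-fold (adjusted p = 0.009). Its sham values spread widely, with replicate 2 the lowest. Mrc1, a mannose receptor, rose 4.11-fold, Csf1r, the receptor for both macrophage growth factors, rose 2.24-fold, and Spi1 rose 3.46-fold. The sensors of nucleic acid Tlr7 and Tlr13 rose 3.44-fold and at least 3.72-fold.

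**Figure D4:**
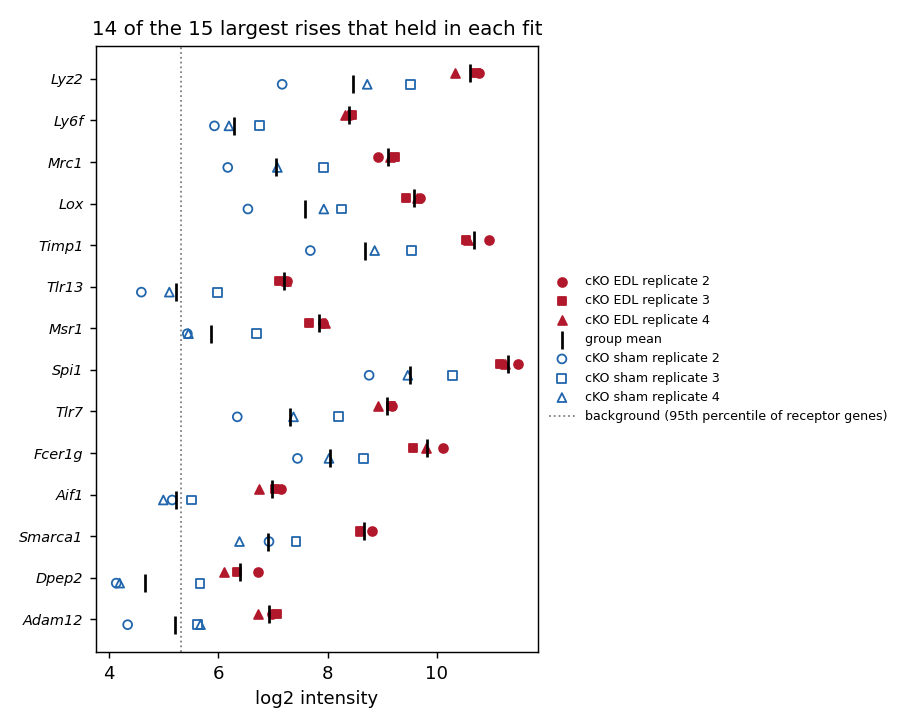
Log2 intensities of 14 of the 15 largest rises that held, with filled red symbols for the 3 cKO EDL arrays, open blue symbols for the 3 cKO sham arrays and black bars for group means. The sham arrays spread more than the EDL arrays in most genes: Lyz2 runs between 7.17 and 9.53 in sham arrays and between 10.33 and 10.76 in EDL arrays.

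Several epithelial and secreted products rose as well, and each rise named here held. Smarca1, a chromatin remodeller, read 8.81, 8.59 and 8.60 in EDL arrays and 6.93, 7.42 and 6.39 in sham arrays, a rise of 3.37-fold. Wfdc3, of a family of secreted protease inhibitors, read 8.37, 7.74 and 7.78 in EDL arrays and 6.65, 6.72 and 6.56 in sham arrays, a rise of 2.50-fold. Neither gene had overlapping groups, as was so for 25.8% of all genes. Serpina3n, a protease inhibitor of the acute phase, rose 2.91-fold, and Lrg1, a glycoprotein of the same response, rose 2.61-fold. Pigr, which carries antibodies across epithelia, read 6.32, 5.15 and 5.91 in EDL arrays and 4.10, 4.69 and 3.96 in sham arrays, a rise of at least 1.40-fold. Sectm1b rose 2.52-fold, and Stra6, a vitamin A transporter, rose 2.52-fold. Cdkn1a and Gadd45g, which slow the cell cycle under stress, rose 1.46-fold and 1.53-fold. The acute phase list had 5 rises among 18 genes (27.8%, beside 5.04% of all genes). There were 2 left without cKO sham replicate 2 or EDL replicate 2 and 3 without EDL replicate 4.

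Other leukocyte lists had fewer calls than the macrophage list. In the neutrophil list 1 of 14 rose (7.1%, beside 5.04% of all genes), and 8 of the 14 genes were above background. In limma 6 of the 14 had an unadjusted p under 0.05. The count of rises was 0 without cKO sham replicate 2, EDL replicate 2, sham replicate 4 or EDL replicate 4. It was 2 without cKO EDL replicate 3 or Ctl EDL replicate 2. S100a9, a neutrophil granule protein, did not pass (log2 change 0.83 ± 0.30, adjusted p = 0.10). The lymphoid list had 0 rises and 2 falls among 20 genes, and 9 of the 20 were above background. Zap70, a T cell receptor kinase, was 1 of the 2, with 5.12, 5.36 and 5.37 in EDL arrays and 8.19, 7.20 and 7.34 in sham arrays, a fall of at least 4.81-fold. The T cell receptor gene Cd3e stayed below background in both groups. The interferon list had 7 rises among 25 genes (28.0%). It had between 2 and 3 in the fits without cKO sham replicate 2, EDL replicate 2, sham replicate 4 or EDL replicate 4. Irf1 and Irf9, factors of that response, rose 1.40-fold and 1.42-fold and held. Il6 and Tnf were below background in both groups.

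Many matrix genes rose on the ligated side, and most of these calls rested on cKO sham replicate 2. Of 34 matrix genes 22 rose (64.7%, beside 5.04% of all genes), 1 fell (2.9%, beside 4.74%), and the median change was 0.93. Without cKO sham replicate 2, 3 rose and the median was 0.66, and 13 to 14 rose without cKO EDL replicate 2 or 4. The fall was lost without cKO sham replicate 2 or 3 or EDL replicate 2 or 3. Lox, which crosslinks collagen, read 9.70, 9.45 and 9.63 in EDL arrays and 6.54, 8.26 and 7.93 in sham arrays, a rise of 4.03-fold that held. Eln and Bgn, encoding elastin and a proteoglycan, rose 2.12-fold and 1.81-fold and held too. Fn1, fibronectin, rose 3.83-fold (adjusted p = 0.012), and did not pass without cKO sham replicate 2 (adjusted p = 0.0698) or cKO EDL replicate 2 (0.0585). Of 28 matrix proteases and inhibitors 16 rose (57.1%), 5 held, and 0 fell. Of these genes 5 rose without cKO sham replicate 2, 8 without EDL replicate 2, 10 without EDL replicate 3 and 9 without EDL replicate 4. Mmp7, an epithelial protease, read 10.55, 10.40 and 10.33 in EDL arrays and 8.98, 9.28 and 9.01 in sham arrays, a rise of 2.53-fold. Timp1, an inhibitor of such proteases, rose 3.98-fold. Mmp7 had tight sham values, unlike the matrix genes above.

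Of 14 smooth muscle genes 8 rose (57.1%, beside 5.04% of all genes), and 0 of these held. Without cKO sham replicate 2, EDL replicate 2 or EDL replicate 4 the count of rises was 0. Actg2, an enteric actin, went the other way, with 10.93, 9.37 and 11.29 in EDL arrays and 13.06, 12.95 and 13.04 in sham arrays, a log2 change of -2.48 ± 0.42 that held. Of 18 endothelial genes 7 rose (38.9%, beside 5.04% of all genes) and 1 fell (5.6%, beside 4.74%). Of these genes 3 rose without cKO sham replicate 2 or EDL replicate 2. Cdh5, the cadherin of vessel walls, rose 2.34-fold, while Plvap, a protein of vessel pores, fell 2.06-fold, with 8.59, 8.33 and 8.42 in EDL arrays and 9.54, 9.53 and 9.40 in sham arrays. Cd34, found on vessels and stromal cells, fell 2.71-fold. The 5 red blood cell genes gave 0 calls in limma (3 at an unadjusted p under 0.05) with a median change of 0.89, or 0.29 without cKO sham replicate 2. Red cell genes were lowest in the same sham array as the matrix, macrophage and endothelial genes, and their part in these rises was not tested.

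Basal cell genes rose in part, in mice whose basal cells carry the deletion. Of 18 measured 5 rose (27.8%, beside 5.04% of all genes), 4 held, and 1 fell (5.6%, beside 4.74%). That fall was lost without cKO sham replicate 2, EDL replicate 2 or sham replicate 4. Krt5, the keratin whose expression defines the deleted cells, read 10.82, 10.57 and 10.85 in EDL arrays and 9.72, 10.05 and 9.79 in sham arrays, a rise of 1.86-fold (adjusted p = 0.000103). Krt14, its partner, read 10.14, 9.81 and 10.11 in EDL arrays and 8.44, 9.08 and 8.62 in sham arrays, a rise of 2.48-fold. The integrins Itga6 and Itgb4, which anchor basal cells, rose 1.51-fold and 1.64-fold. Trp63, the factor that specifies basal cells, read 10.49, 10.66 and 10.62 in EDL arrays and 10.72, 10.61 and 10.54 in sham arrays, and Krt15 did not pass (log2 change 0.25 ± 0.18). The Krt5 and Krt14 values were separate between the surgeries, as was so for 25.8% of all genes, and the Trp63 values were not.

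Of 25 injury and repair genes 9 rose (36.0%, beside 5.04% of all genes) and 2 fell (8.0%, beside 4.74%). Of these genes 5 rose without cKO sham replicate 2 or EDL replicate 2. Cd44, a receptor for hyaluronan, Ly6a and Lgals3 rose 2.22-fold, 2.19-fold and 2.02-fold and held. Sox4 rose 1.53-fold and Sox9 fell 1.39-fold. Among 30 proliferation genes 3 rose and 1 fell, although the median change was 0.75. Mki67, a marker of dividing cells, read 10.35, 8.97 and 9.84 in EDL arrays and 7.72, 8.92 and 8.60 in sham arrays, so EDL replicate 3 lay near the sham arrays. Without that array 17 of the 30 rose, and 12 rose without Ctl sham replicate 3, which enters the shared estimate of spread. Without any 1 of the other 5 cKO arrays, 1 rose.

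The lists of androgen response, oxidative phosphorylation, ribosomal protein, ciliary GTPase and Hedgehog genes had between 0 and 3 calls each. The 17 androgen response genes had 0 calls in limma (5 at an unadjusted p under 0.05; 1 fall without cKO sham replicate 4). Of 82 oxidative phosphorylation genes 1 rose (1.2%, beside 5.04% of all genes) and 0 fell. Of 83 ribosomal protein genes 1 rose (1.2%) and 1 fell (1.2%, beside 4.74%). Both rises were lost without cKO sham replicate 2, EDL replicate 2, sham replicate 4 or EDL replicate 4. The ribosomal rise was also lost without EDL replicate 3. In the list of 32 ciliary GTPases and their partners 2 rose (6.2%) and 0 fell. In the fits without 1 array 1 rose, except 2 without cKO sham replicate 2 or EDL replicate 3. In that list 1 fell without cKO EDL replicate 3 or sham replicate 4. Among 21 Hedgehog genes, whose signalling depends on cilia, 3 rose (14.3%, beside 5.04% of all genes) and 0 fell, and 1 rose without cKO sham replicate 2 or EDL replicate 3. Ptch1, a Hedgehog receptor and target, did not pass (log2 change 0.14 ± 0.12), and neither did Gli1, a target whose EDL mean lay below background (4.95, 5.23 and 5.28 in EDL arrays, against 5.14, 5.47 and 5.69 in sham arrays).

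The response was set against that of Ctl mice by the interaction, the cKO change minus the Ctl change. It passed for 0 of 21929 genes (0.0%) in limma, and for 0 in each of 21 alternatives. At an unadjusted p under 0.05 there were 899 genes (4.10%), 469 with a higher and 430 with a lower change in cKO, and the smallest adjusted p was 0.427. Ctl mice had 726 rises (3.31%) and 1002 falls (4.57%). Of the cKO calls, 460 rises and 712 falls were also called in Ctl, and 0 genes had opposite calls. These counts share the model's estimate of spread but no arrays. For a gene with the median error the unadjusted 95% interval of the interaction reached 0.34 log2 to either side. Passing after adjustment over 21929 genes takes a larger difference, so the 0 calls leave room for differences above 0.34 log2. Etv5 changed by -4.53 in cKO and -4.61 in Ctl, and Teddm2 by -6.90 in cKO and -6.60 in Ctl. Krt5 changed by 0.89 in cKO and 0.44 in Ctl, a difference of 0.46 (95% interval 0.15 to 0.76, unadjusted p = 0.0069) that did not pass after adjustment. Among the genes with the smallest interaction p-values was Lrrc10b, with values near background. It read 4.99, 4.99 and 5.01 in cKO EDL arrays and 5.53, 5.63 and 5.55 in cKO sham arrays. It read 5.53, 5.47, 5.73 and 5.55 in Ctl EDL arrays and 5.36, 5.27, 4.96 and 5.41 in Ctl sham arrays.

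**Figure D5:**
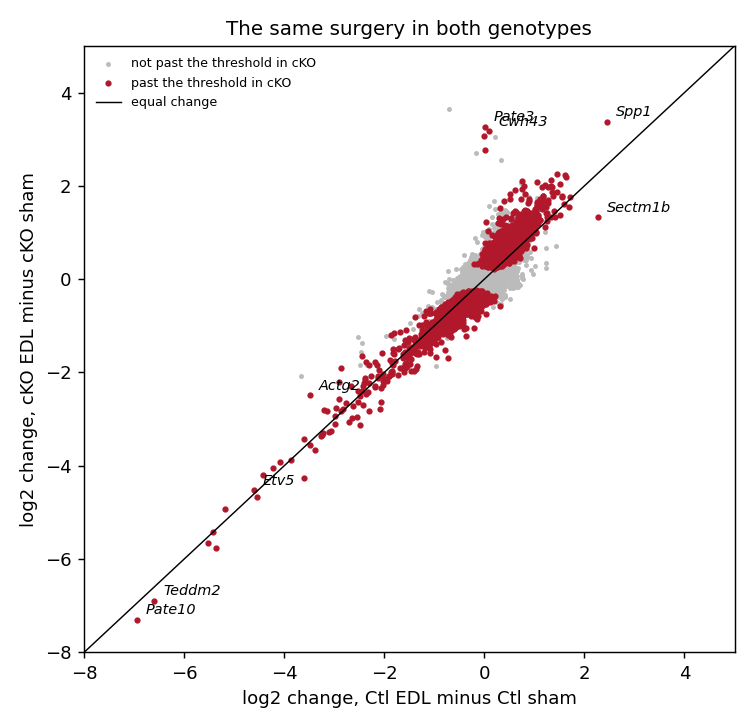
Each point is 1 of 21929 genes, with the log2 change in Ctl (4 EDL and 4 sham arrays) on the x axis, that in cKO (3 and 3 arrays) on the y axis and a line of equal change. The deep falls lie near the line (Teddm2 -6.90 in cKO and -6.60 in Ctl), and a few genes such as Pate3 (3.27 in cKO and 0.01 in Ctl) lie above it with an interaction that did not pass. The cKO rise of Pate3 did not hold, and was lost in each fit without 1 cKO array.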

How the data were processed

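RNA of the proximal epididymis was measured on 14 Clariom S arrays. The deposited table held log2 intensities of 22206 probe sets in 2 parts. RMA, Affymetrix Expression Console and Partek 7.0 appear in the submitters' processing notes, in no stated order. How a second deposited log2 table was normalized is not stated, and it was used as an alternative. The authors' p-values for cKO sham against cKO EDL, in the deposited comparison table, equalled an ANOVA on the log2 table for 100.0% of probe sets (within 0.01 on the log10 scale). They gave 1675 probe sets after Benjamini-Hochberg adjustment. That table's 14 columns of array values were not used.

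Symbols were updated through RefSeq (20456 matched, 902 updated), and the probe set with the highest mean stood for each symbol. One limma model held a mean for each of 4 groups over all 14 arrays (10 residual degrees of freedom plus 4.16 prior ones). Tests were two-sided, and p was adjusted by Benjamini-Hochberg over 21929 genes with a threshold of 0.05. The number of arrays limits the precision: the 95% interval of a cKO change reached 0.26 log2 to either side at the median error. The model was also run on simulated data with known changes and independent noise. Those data held no pairing of sides and no outlying array, so they do not bear on either. Folds against a group mean below 5.31 are lower bounds.

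Named genes were the 15 largest rises and falls that held, up to 8 members per list by p, the 10 smallest interaction p in each direction, 6 fixed genes and list members whose role a sentence turns on. Not all are printed, some results are not reported here, and some further genes (the transcription factors Runx1, Runx2 and Lef1, St3gal2, Mfsd2a, Pla2g5, Inpp5d, Vip, Stra6 and Sectm1b) were chosen after their values were seen. The members and the 52 lists were chosen with earlier results of these data known, and the promoter motifs after the expression results.

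Each mouse gave both sides, but no label ties a number to a mouse. Deviations of same-numbered cKO arrays correlated at -0.002, 0.046 and 0.093, against -0.083 to 0.022 for EDL and sham arrays of different numbers. Those of same-numbered Ctl arrays correlated at 0.198, 0.055, 0.024 and 0.157, against -0.231 to 0.209. With the numbers as a random block the correlation within a number was 0.109. These values were low, and the main model did not pair the arrays, although a weak pairing may be present. Alternatives were the replicate block (fixed, random, or on the cKO arrays alone), median centring, the second table, a filter on low values, trended and robust variances, array weights and leaving out each array. R 4.3.3, limma 3.58.1, Python 3.11.15, pandas 2.3.3, numpy 2.4.6 and matplotlib 3.10.9 were used.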

Additional observations from a re-analysis of the deposited data

Results flagged for a closer look

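In 9 of the 20 genes with the smallest interaction p, every cKO pair of equal replicate number moved one way and every Ctl pair the other. The difference was tested for each, and the limma interaction did not pass for any after adjustment. The interaction was higher in cKO by 0.57 log2 for Slurp1, 0.54 for Fam186b and 0.54 for Cntnap3. It was lower in cKO, at -0.89 for Lrrc10b, -0.46 for Eef1akmt1, -0.61 for Tas2r102, -0.58 for Abhd16b, -0.78 for Efhb and -0.42 for Irx3. Tas2r102, Abhd16b and Efhb were below background in both cKO groups. These genes were picked by a small p, so opposite directions among them are no separate evidence. The Ctl EDL and Ctl sham values of 9 genes, 18 groups of 4 arrays in all, were screened with Dixon's 95% critical value. In 2 groups 1 Ctl sham array lay far from the other 3: Defb26 read 9.72 in replicate 4, and Slurp1 read 6.40 in replicate 3. By its construction that limit is passed by chance in about 1 of 20 groups.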

How the results depend on the processing

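At the main setting 2146 genes were called, 1106 rises and 1040 falls. The 6 cKO arrays alone with no replicate block gave 1375 calls, 666 rises and 709 falls. With the replicate block on these 6 arrays there were 937 calls, 419 rises and 518 falls. The fixed replicate block over all 14 arrays gave 992 rises and 963 falls, and the pairing it assumes is not stated by the labels. Leaving out 1 array gave between 1063 and 2197 calls, with 431 to 1165 rises and 632 to 1044 falls, and the lowest counts of both came without cKO sham replicate 2. Centring arrays on their medians shifted the cKO change by 0.07 log2 and moved the share of rises among calls to 34.9%, against 51.5%. The interaction had 0 calls under each of 21 alternatives. Of 234 genes followed singly that were called, 156 kept their call under each of the 23 alternatives that tested them. Of the 234, 0 changed direction in any. The filter on low values removed some of the genes followed singly, which were not tested under it. Calls lost with a replicate block on 6 arrays rest on fewer arrays and degrees of freedom. Further limits are the 3 arrays per cKO group and the use of whole tissue.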
